A study of Mus musculus with 16 samples.

Results

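Neutrophils and macrophages were both sorted from the knee of mice on day 1 and day 14 after anterior cruciate ligament reconstruction (ACLR), and the comparison here asked which genes changed over that time in one and not equally in the other. For each gene, the mean of the changes of CD9+ and CX3CR1+ macrophages from day 1 to day 14 was subtracted from the change of neutrophils. A gene called lower therefore fell more, or rose less, in neutrophils than in macrophages, and a gene called higher did the opposite. The samples were chosen by their labels, and 12 of the 16 bulk RNA-seq libraries enter the difference, 4 each of neutrophils, CD9+ macrophages and CX3CR1+ macrophages.

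The mice were male C57BL/6 wild-type animals given a tendon graft in the right knee, and all groups carried that surgery, so no unoperated control enters these values. The tendon-to-bone interface tissue was digested, several mice were pooled per sort, and each of the 8 groups had 2 libraries. Neutrophils were gated as live Lin- CD45+ Ly6G+ Ly6C+ cells. CD9+ macrophages were Ly6G- CD11b+ F4/80+ CD9+ cells, and CX3CR1+ macrophages were F4/80+ CX3CR1+ cells without CD9. The remaining 4 libraries, of F4/80- myeloid cells, entered the fit for its estimate of the spread. Since nothing in the labels ties a library to separate animals, p-values measure the spread between pools or libraries. In bulk samples, fewer cells of a type and less RNA per cell cannot be told apart.

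Neutrophils are the first cells to enter a wound. They carry preformed granules, sense microbes and damage through receptors such as TLRs, and on activation make chemokines and cytokines under the control of NF-kappaB and AP-1. Macrophages arrive with and after them, respond through the same pathways and persist into repair. Low oxygen acts through HIF-1 on genes of glycolysis and survival in both.

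The libraries held between 9233952 and 19814119 counts. The neutrophil markers set the gates apart: the neutrophil libraries had 69560 to 137000 CPM (counts normalised to library size by TMM, on the usual CPM scale) over 18 neutrophil markers, against 673.7 to 22780 CPM in the macrophage libraries, where the high end was CD9+ macrophages. Replicates of CD9+ macrophages on day 1 were the least alike (r = 0.935 over genes on the log2 scale, against 0.976 to 0.985 for the other neutrophil and macrophage groups). The 18 monocyte and macrophage markers summed to 11700 to 14240 CPM in CX3CR1+ libraries. In CD9+ libraries they summed to 7846 and 8984 CPM on day 1 and to 6209 and 7310 CPM on day 14. In neutrophils the sums were 9075 and 6696 CPM and then 9803 and 10230 CPM, with Lyz2, which neutrophils also express, as the main part. Without Lyz2, the other 17 summed to 3032 to 3210 CPM in day 1 neutrophils and to 1093 to 1129 CPM on day 14. Emilin2, which was above both macrophage levels in day 1 neutrophils, was the largest part of these sums, at 1820 and then 517 CPM. In neutrophils 16 of the 18 had a lower mean on day 14. The day 1 neutrophil level of the 18 was a median of 10.2% of the CX3CR1+ level, from 4.13% for Fcgr1 to 202% for Emilin2. Adgre1, which encodes F4/80, was at 23.9%, Csf1r at 40.8% and Cd68 at 48.9%. On day 14 the median was 11.4% of the CX3CR1+ level. Against the CD9+ level the medians were 10.1% on day 1 and 3.72% on day 14.

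The day 14 CD9+ libraries went in part against their label. The 8 eosinophil markers summed there to 7052 and 11430 CPM, above the sums of the macrophage markers in the same libraries, and to 646.7 and 657.6 CPM on day 1. They summed to 34.41 to 127.8 CPM in CX3CR1+ libraries and to 66.83 to 93.33 CPM in neutrophils. In the macrophage mean 6 of the 8 rose and none fell, and in neutrophils 4 rose and 2 fell. The only member called was Siglecf, called lower, which was above both macrophage levels in day 1 neutrophils. CD9+ macrophages make up one side of the macrophage mean, and the part of these markers in the results was not tested. Against CX3CR1+ macrophages alone, 876 genes were called lower and 215 higher, and 813 of these calls were shared with the comparison against both.

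Of 11998 genes tested, 892 (7.43%) were called lower and 165 (1.38%) higher, with a Benjamini-Hochberg adjusted p under 0.05 by edgeR's quasi-likelihood test and a log2 difference of at least 1. Neutrophils alone rose for 378 genes (3.15%) and fell for 1311 (10.9%), whereas the macrophage mean rose for 472 (3.93%) and fell for 462 (3.85%). Of the 892 genes called lower, 603 fell in neutrophils with no call in the macrophage mean. Another 92 fell in both and further in neutrophils, 80 rose in macrophages alone, 20 fell in neutrophils and rose in macrophages, and 97 were called in neither change by itself. The 165 genes called higher were spread differently: 66 rose in neutrophils alone, 35 fell in macrophages alone, 5 fell in both and less in neutrophils, and 59 were called in neither. The count of 1057 called genes went to 533 when a gene had to pass the expression filter in every group and to 663, with 547 lower, without the second day 14 neutrophil library. The higher count went from 165 to 353 without the first day 1 neutrophil library, to 109 without the first day 14 one and to 254 without the second day 1 CD9+ library.

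**Figure D1:**
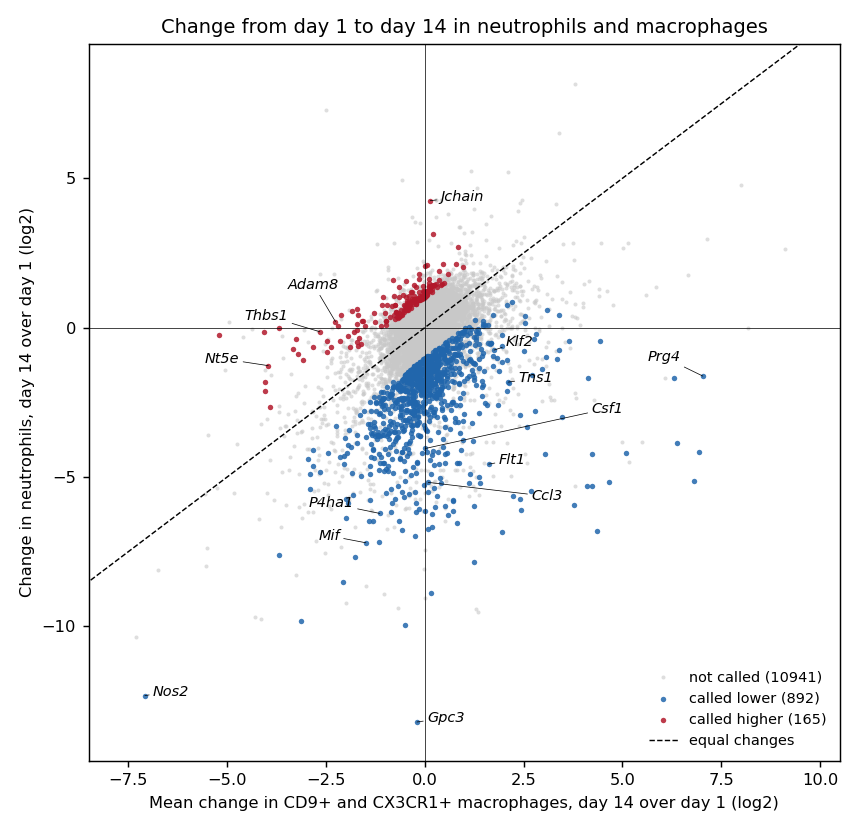
Each point is a tested gene, with the mean log2 change of CD9+ and CX3CR1+ macrophages from day 1 to day 14 on the x axis and the log2 change of neutrophils on the y axis, both fitted by edgeR. The 892 genes called lower (blue) lie below the dashed line of equal changes and the 165 called higher (red) above it, and Gpc3 and Nos2 sit at the bottom because their day 14 neutrophil libraries held 0 to 2 counts.

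**Figure D2:**
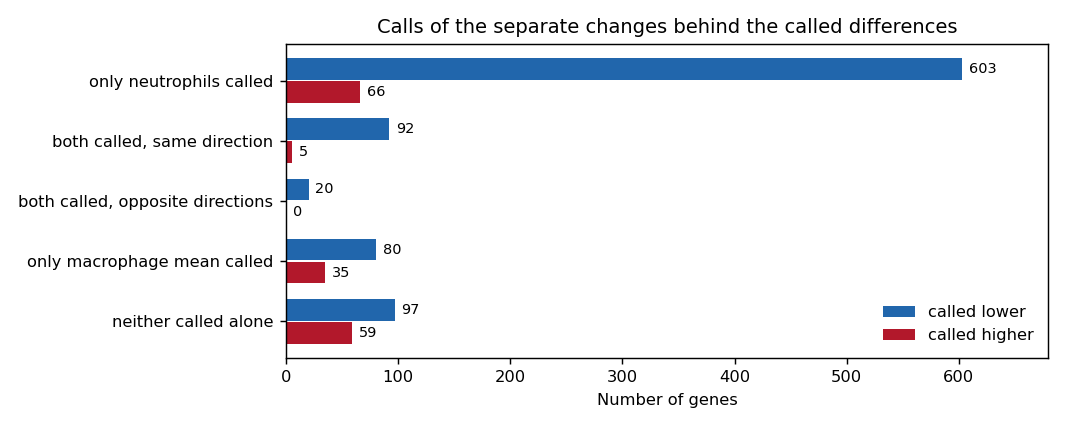
Bars give the number of genes called lower (blue) or higher (red), split by whether the neutrophil change and the macrophage mean change were each called alone. The longest bar, 603 genes, holds those that fell in neutrophils with no call in macrophages.

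In 812 of the lower genes (91.0%) every difference between a day 14 and a day 1 neutrophil library lay below every such difference within either macrophage population. In 142 of the higher genes (86.1%) it lay above, against 21.8% of all tested genes in either direction. The same libraries gave the calls, so these shares describe the called genes and are no separate support for them. Against each macrophage population separately, 489 of the lower and 49 of the higher genes were called in the same direction both times. On day 1 the neutrophil mean was above both macrophage means for 430 of the 892 lower genes and below both for 389, and between them for 73. Over all tested genes the neutrophil mean was above both for 44.0%, against 48.2% of the lower genes.

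Of 24 tested cytokine and chemokine genes, 11 were called lower and 1, Osm, higher, and 17 fell in neutrophils against 12 in the macrophage mean. The median difference over the list was -1.96 on the log2 scale, beside -0.0485 over all tested genes. Of all tested genes, 7.43% were called lower and 1.38% higher, and 10.9% fell in neutrophils against 3.85% in the macrophage mean. These shares are the background for the counts of this list and of the lists below. Ccl3 and Ccl4, chemokines that draw monocytes and lymphocytes, Csf1, the growth factor of macrophages, and Il1a, an alarmin cytokine, were among the 11. Of the 11, 7 were above both macrophage levels in neutrophils on day 1.

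Ccl3 was at 1505 and 3027 CPM in the day 1 neutrophil libraries and at 65.9 and 59.3 CPM in the day 14 ones. In CD9+ macrophages it was at 142 and 152 CPM and then at 109.5 and 102 CPM, and in CX3CR1+ macrophages at 116 and 123 CPM and then at 220.2 and 156 CPM. The neutrophil libraries of the 2 days were far apart while those of macrophages stayed within a narrow band. Ccl3 fell 36.2-fold in neutrophils (edgeR adjusted p = 9.95e-09), the macrophage mean changed by 0.09 on the log2 scale (adjusted p = 0.743), and the difference was -5.27 (SE 0.32, adjusted p = 1.11e-07).

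Csf1 was at 685 and 1187 CPM in neutrophils on day 1 and at 56.4 and 57.1 CPM on day 14. It was at 53.1 to 71.6 CPM in all 4 CD9+ libraries and at 4.08 to 6.29 CPM in all 4 CX3CR1+ libraries. Neutrophils, far above both macrophage populations on day 1, ended within the range of CD9+ macrophages, and the difference was -4.06 (SE 0.28, edgeR adjusted p = 3.45e-07). Ccl4 fell 25.1-fold in neutrophils, with a difference of -4.36 (SE 0.35, edgeR adjusted p = 1.90e-06).

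Il1a went from 202 and 539.7 CPM to 1.56 and 2.15 CPM in neutrophils. It also fell in the macrophage mean, by 12.8-fold, and the difference was -3.94 (SE 0.77, edgeR adjusted p = 0.00305). Il1b, the secreted IL-1 cytokine, showed no such difference against the macrophage mean. It fell 3.21-fold in neutrophils and 3.76-fold in that mean, and the log2 difference was 0.23 (SE 0.22, edgeR adjusted p = 0.541). Its log2 change of -1.68 in neutrophils lay between those of CD9+ (-2.53) and CX3CR1+ macrophages (-1.29). Il23a, a subunit of IL-23, was at 39.3 and 100.3 CPM in day 1 neutrophils and at 3 counts in each day 14 library, at least 209-fold lower against a floor of 3 counts per library. Its macrophage levels were under 2.75 CPM, and its call was lost without the first day 14 library of CD9+ macrophages (difference -5.15, edgeR adjusted p = 0.129) or of CX3CR1+ macrophages (-5.62, adjusted p = 0.126). Nos2, the inducible nitric oxide synthase, was at 547 and 674 CPM and then at 0 and 2 counts, at least 1830-fold lower, while it also fell in the macrophage mean. Its difference, fitted at -5.24, is no bound and was not called against CX3CR1+ macrophages alone (edgeR adjusted p = 0.0786). The call of Nos2 was also lost without the second day 1 (edgeR adjusted p = 0.0568), the first day 14 (0.0823) or the second day 14 neutrophil library (0.0565), or the second day 14 CX3CR1+ library (0.292).

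NF-kappaB induces its own inhibitors, which limit the response. Of 18 tested subunits and inhibitors, 12 were called lower (Nfkb2, Relb, Rel, Nfkbia, Nfkbib, Nfkbie, Nfkbiz, Tnfaip3, Tnip1, Birc3, Traf1 and Ier3), none higher, and the called values ran from -4.54 to -1.05. Those not called included Nfkb1 and Rela, the subunits of the canonical dimer. All 12 were above both macrophage levels in neutrophils on day 1, and 12 of the 18 fell in neutrophils against 1 in the macrophage mean.

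Nfkbia encodes IkappaB-alpha, which holds NF-kappaB in the cytoplasm. It was at 1092 and 2317 CPM in day 1 neutrophils and at 148 and 161 CPM on day 14, against 293, 452, 256 and 299 CPM in the CD9+ libraries of both days and 219, 221, 88.3 and 90.9 CPM in the CX3CR1+ ones. It fell by 3.46 on the log2 scale in neutrophils, the macrophage mean changed by -0.86, which was under the limit for a call, and the difference was -2.61 (SE 0.32, edgeR adjusted p = 7.51e-05). Tnfaip3 encodes A20, an ubiquitin-editing enzyme that ends the signal. It was at 821 and 1970.3 CPM and then at 158 and 152 CPM in neutrophils, but went from 240.2 and 254 CPM to 425 and 489 CPM in CD9+ macrophages and from 166 and 175 CPM to 285 and 256 CPM in CX3CR1+ macrophages. In both macrophage populations the day 14 libraries lay above the day 1 libraries, a change of 0.78 in the mean that was under the limit for a call, and the difference was -3.94 (SE 0.33, edgeR adjusted p = 3.01e-06). Traf1, a TNF receptor adaptor, had a difference of -4.54 (SE 0.56, edgeR adjusted p = 7.17e-05), and Relb, the subunit of the alternative pathway, one of -2.35 (SE 0.32, adjusted p = 0.000172). In all of Ccl3, Ccl4, Csf1, Il1a, Nfkbia, Tnfaip3, Traf1 and Relb, the second day 1 neutrophil library was above the first.

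**Figure D3:**
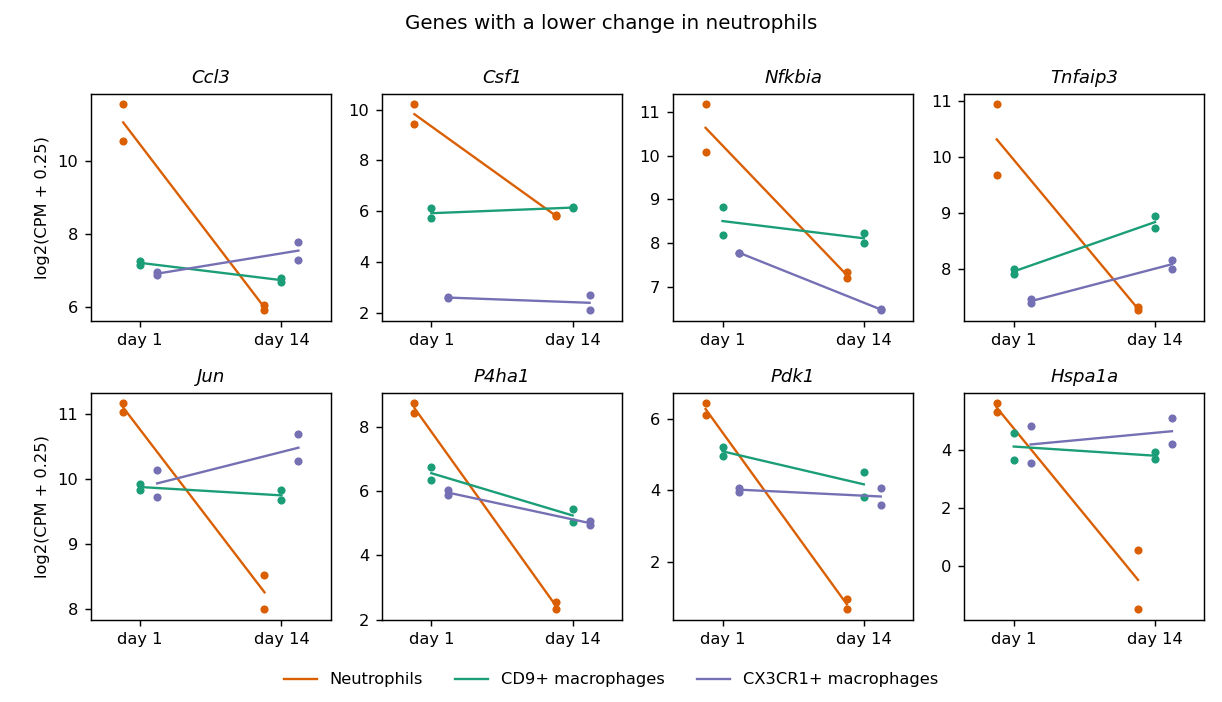
Points are the 2 libraries of a group on day 1 and day 14, as log2(CPM + 0.25), and lines join the group means of neutrophils (orange), CD9+ macrophages (green) and CX3CR1+ macrophages (purple). In all 8 genes neutrophils were the highest population on day 1 and fell by day 14, whereas Tnfaip3 was higher on day 14 in both macrophage populations.

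Of 20 tested AP-1, EGR and other immediate early genes, 13 were called lower and none higher, and the list's median was -1.28. Of these 20, 9 fell in neutrophils, and 2 rose and 1 fell in the macrophage mean. Jun, an AP-1 subunit, was at 2107 and 2309 CPM in day 1 neutrophils and at 369 and 256 CPM on day 14. In macrophages it stayed between 819 and 971 CPM in CD9+ and between 847 and 1662 CPM in CX3CR1+ libraries, and the difference was -3.03 (SE 0.25, edgeR adjusted p = 2.52e-06). Klf2, a factor that restrains inflammatory genes, was higher on day 14 in macrophages: it went from 189 and 145 CPM to 470.3 and 456 CPM in CD9+ macrophages and from 226 and 222 CPM to 1008 and 828 CPM in CX3CR1+ macrophages, while neutrophils had 862, 1806, 794 and 794 CPM. Klf2 rose in the macrophage mean by 1.75 on the log2 scale, and its difference was -2.50 (SE 0.31, edgeR adjusted p = 7.38e-05). Fos (0.47) and Junb (-0.11), 2 of the 7 not called and picked after their values were seen, show that the list did not move as one.

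The list of the response to low oxygen and of glycolysis had 15 of 29 called lower, none higher and a median of -1.02. In neutrophils 23 of them fell, and in the macrophage mean 14. All 15 were above both macrophage levels in neutrophils on day 1. P4ha1, a collagen prolyl hydroxylase subunit, was at 345 and 425 CPM and then at 5.64 and 4.72 CPM in neutrophils, against 81.7, 107, 32.3 and 43.4 CPM in CD9+ and 57.9, 65.3, 32.9 and 30.7 CPM in CX3CR1+ libraries. It fell 74.5-fold in neutrophils and 2.20-fold in the macrophage mean, a difference of -5.08 (SE 0.26, edgeR adjusted p = 4.67e-08). Pdk1, the kinase that keeps pyruvate out of mitochondria, fell 51.2-fold in neutrophils and differed by -5.14 (SE 0.34, edgeR adjusted p = 2.79e-07). Mif, a cytokine and HIF-1 target whose reads can be shared with near-identical pseudogenes, fell from 174 and 188 CPM to 1.56 and 0.923 CPM in neutrophils and 2.81-fold in the macrophage mean, a difference of -5.71 (SE 0.38, edgeR adjusted p = 2.79e-07). The glycolytic enzymes were divided: Hk2, Pfkl, Pfkp and Tpi1 were among the 15 called lower, and Gapdh, Pgk1, Ldha, Eno1 and Pkm among the 14 not called.

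Of 24 tested chaperones and regulators of the heat shock and endoplasmic reticulum (ER) stress responses, 13 were called lower, none higher, and the median was -1.06. Hspa1a and Hspa1b, which encode the inducible HSP70 and are near-identical neighbours that reads can be split between, went from 39.1 and 48.4 CPM to 1.2 and 0.103 CPM and from 47.2 and 46.9 CPM to 2.16 and 1.03 CPM in neutrophils. Macrophages held between 11.5 and 33.5 CPM of Hspa1a on both days. The differences were -6.14 (SE 0.79, edgeR adjusted p = 0.000107) for Hspa1a and -5.07 (SE 0.67, adjusted p = 0.000132) for Hspa1b. Trib3, a pseudokinase induced by ER stress, fell from 44.6 and 38.8 CPM to 2.76 and 2.46 CPM in neutrophils and differed by -3.13 (SE 0.58, edgeR adjusted p = 0.00225).

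Sequences upstream of 4 genes called lower are shown because they hold the letters of a motif tied to these pathways. They are the 250 bases before the start in the RefSeq promoter table (build GRCm38.p6), 5′ to 3′ on the gene's strand. Capitals mark matches to GGGANTTTC or GGGGNTTTC (NF-kappaB) in Nfkbia and Csf1, to TGANTCA (AP-1) in Il1a, and to ACGTG (HIF-1) in P4ha1, on either strand. Nfkbia lies at chr12:55492648-55492897 (minus strand), Csf1 at chr3:107760470-107760719 (minus strand), Il1a at chr2:129309973-129310222 (minus strand) and P4ha1 at chr10:59323046-59323295 (plus strand).
Nfkbia: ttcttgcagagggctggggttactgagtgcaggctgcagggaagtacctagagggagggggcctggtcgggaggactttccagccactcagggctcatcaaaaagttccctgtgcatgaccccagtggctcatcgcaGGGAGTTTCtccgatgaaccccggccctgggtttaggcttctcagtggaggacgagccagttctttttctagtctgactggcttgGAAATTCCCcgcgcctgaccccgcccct
Csf1: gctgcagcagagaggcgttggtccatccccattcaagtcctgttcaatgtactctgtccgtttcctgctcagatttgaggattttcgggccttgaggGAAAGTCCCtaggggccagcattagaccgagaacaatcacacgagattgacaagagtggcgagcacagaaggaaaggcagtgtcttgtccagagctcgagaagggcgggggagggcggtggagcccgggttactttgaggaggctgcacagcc
Il1a: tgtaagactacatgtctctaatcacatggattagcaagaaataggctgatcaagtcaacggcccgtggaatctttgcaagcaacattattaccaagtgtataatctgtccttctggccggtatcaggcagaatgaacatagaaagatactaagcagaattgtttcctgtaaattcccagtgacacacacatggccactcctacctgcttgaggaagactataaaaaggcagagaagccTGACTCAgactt
P4ha1: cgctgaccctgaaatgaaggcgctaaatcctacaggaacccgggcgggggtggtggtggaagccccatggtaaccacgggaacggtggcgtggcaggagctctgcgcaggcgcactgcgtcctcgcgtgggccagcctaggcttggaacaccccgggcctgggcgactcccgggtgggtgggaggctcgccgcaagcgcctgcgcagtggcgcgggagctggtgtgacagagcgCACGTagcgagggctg

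Nfkbia had 2 matches starting 113 and 28 bases before its start, Csf1 had 1 at 153 bases, Il1a had 1 at 12 bases and P4ha1 had 1 at 16 bases. Over 300 bases per gene (250 before and 50 after the start), a promoter could be matched for 687 of the lower, 132 of the higher and 8851 of all tested genes. An NF-kappaB match lay in 27 promoters of lower genes (3.93%), 2 of higher genes (1.52%) and 195 of all (2.20%). An AP-1 match lay in 8.01%, 5.30% and 4.97% of them, and TTGCNNAA (C/EBP, a factor family of granulocytes) in 9.02%, 12.1% and 8.50%. The letters ACGTG, which also lie within the E-box CACGTG, were in 27.4%, 23.5% and 26.3%. The shares for the lower, higher and all tested genes were 3.49%, 2.27% and 3.34% for TGACGTCA (CRE), 8.88%, 6.82% and 7.72% for GAAANNGAA (ISRE), and 5.39%, 5.30% and 3.72% for GAGGAAGT (PU.1). They were 39.9%, 44.7% and 39.1% for CCAAT (NF-Y), 2.33%, 3.03% and 3.39% for TTTCCCGC or TTTGGCGC (E2F), and 12.7%, 12.1% and 12.2% for TTTGAA (CHR). No test was made on these shares.

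**Figure D4:**
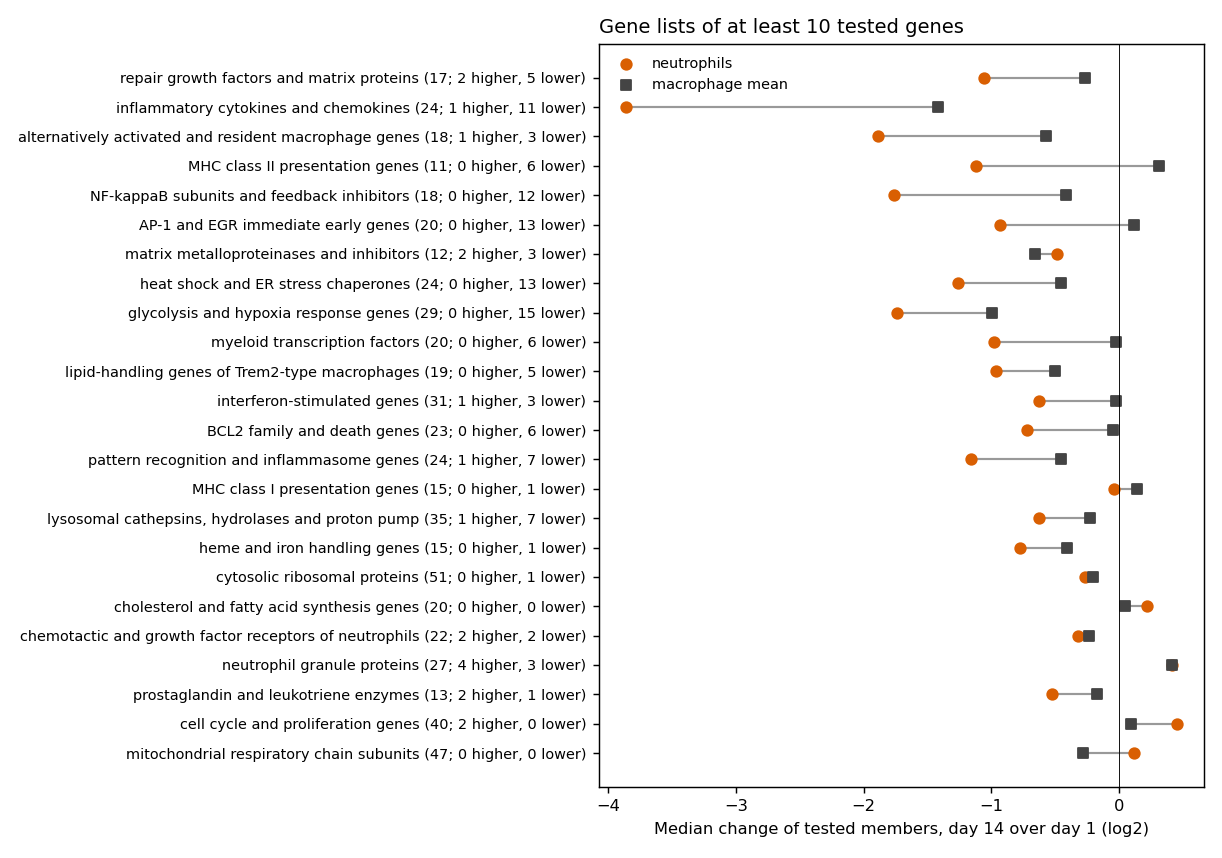
For each list of at least 10 tested genes, the circle gives the median log2 change of neutrophils and the square that of the macrophage mean, with the number tested and the number called higher or lower in brackets. The cytokine list has the lowest neutrophil median (-3.86, macrophages -1.42), and the squares of the MHC class II and AP-1 lists lie above 0 while their circles lie below.

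Among 24 pattern recognition genes, 7 were called lower and 1 higher. Cd14, the lipopolysaccharide co-receptor, went from 2023 and 2407 CPM to 244 and 226 CPM in neutrophils, fell 2.61-fold in the macrophage mean and differed by -1.85 (SE 0.23, edgeR adjusted p = 9.28e-05). Tlr5, the flagellin receptor, was at 48.5 to 54.9 CPM in all 4 neutrophil libraries and fell 2.84-fold in the macrophage mean, a difference of 1.56 (SE 0.23, edgeR adjusted p = 0.000345), but only 0.85 against CX3CR1+ macrophages alone. Among 22 receptors for chemoattractants and growth factors, Ccrl2 (-3.19, SE 0.28, edgeR adjusted p = 4.45e-06) and Ptafr were called lower and C5ar1 and Fpr1 higher, beside backgrounds of 7.43% and 1.38%, so that the lower count was near the background. For the granulocyte receptors Cxcr2 (1.16, adjusted p = 0.149) and Csf3r (-0.52, adjusted p = 0.0722) and for Tlr2 (-0.44, adjusted p = 0.262) the edgeR test made no call.

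Of 11 tested genes of MHC class II antigen presentation, 6 were called lower, and none of these was above both macrophage levels in day 1 neutrophils. Cd74, the invariant chain, was at 84.5 and 59.6 CPM and then at 29.2 and 26.5 CPM in neutrophils, but at 546 to 911 CPM in CD9+ and 623 to 1056 CPM in CX3CR1+ libraries. Its difference was -1.94 (SE 0.21, edgeR adjusted p = 2.05e-05). Likewise, 9 of the 18 monocyte and macrophage markers were called lower and none higher, 12 fell in neutrophils, and only 1 of the 9, Emilin2, was above both macrophage levels in day 1 neutrophils. The sum of the 17 markers without Lyz2 fell in neutrophils and the sum of all 18 did not. These 9 are among the 17, and Emilin2 was the largest part of their sum, so that its fall is no separate support. The part of macrophage RNA in the result was not tested. Of 35 lysosomal genes, 7 were called lower, such as the protease gene Ctss (-2.33, SE 0.29, edgeR adjusted p = 8.70e-05), and 1, Ctsl, higher. Of 20 myeloid transcription factors, 6 were called lower, beside 7.43% of all tested genes. Only 1 of these 6, and 1 of the 7 lysosomal genes, was above both macrophage levels in day 1 neutrophils.

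Of 23 BCL2 family and death genes, 6 were called lower, and 5 of them were above both macrophage levels in day 1 neutrophils. Bcl2a1a, an A1 survival gene of a family of near-identical copies, went from 14.1 and 42.1 CPM to 1.08 and 0.923 CPM in neutrophils and differed by -4.31 (SE 0.69, edgeR adjusted p = 0.000717). Bbc3, which encodes the killer protein PUMA, differed by -1.93 (SE 0.34, edgeR adjusted p = 0.00161). It rose in the macrophage mean by 1.16 on the log2 scale, and its neutrophil change of -0.77 was not called. Abca1, the cholesterol exporter, fell 58.0-fold in neutrophils and 3.85-fold in the macrophage mean, a difference of -3.91 (SE 0.43, edgeR adjusted p = 2.58e-05).

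The largest fitted difference was that of Gpc3, a cell surface proteoglycan on chromosome X. On day 1 it had 1318 and 832 counts in neutrophils (98.5 and 72.8 CPM), and on day 14 it had 0 in both libraries, at least 256-fold lower. The 8 macrophage libraries were at or under 0.421 CPM. Sh3bp4, Dnah2, Gm15987, Bmyc, Prune2 and Snx7 also had low fitted values, but held at most 17 counts in a neutrophil library on day 1 and none on day 14, so that their bounds were only 1.74-fold to 3.87-fold. Flt1, the VEGF receptor 1, changed in opposite directions: it was at 23.8 and 18.8 CPM and then at 1.2 and 0.615 CPM in neutrophils, while it rose 3.06-fold in the macrophage mean. The CX3CR1+ libraries went from 7.57 and 5.63 CPM to 26.7 and 30.2 CPM, and the difference was -6.18 (SE 0.39, edgeR adjusted p = 1.51e-07).

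The genes described next mostly fell in the macrophage mean with no call in neutrophils, as did 17 of the 25 named genes called higher. The rule for named genes favours this pattern, which 35 of all 165 higher genes (21.2%) had, while 66 (40.0%) rose in neutrophils alone. Thbs1, the matrix glycoprotein thrombospondin 1, was at 7009 and 8863 CPM in day 1 neutrophils and at 7597 and 6876 CPM on day 14. It went from 5313 and 10762 CPM to 877 and 968 CPM in CD9+ macrophages and from 4124 and 5788 CPM to 1065 and 1106 CPM in CX3CR1+ macrophages. The neutrophil and CD9+ libraries overlapped on day 1, the neutrophil ones lay above all others on day 14, and there was a difference of 2.52 (SE 0.32, edgeR adjusted p = 0.000100).

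Adam8, a sheddase of leukocytes, had 1405 to 1668 CPM in all neutrophil libraries and fell 4.79-fold in the macrophage mean, a difference of 2.47 (SE 0.25, edgeR adjusted p = 1.51e-05). Nt5e, which encodes the ectonucleotidase CD73, fell in both, by 2.41-fold in neutrophils and 15.6-fold in the macrophage mean, and differed by 2.69 (SE 0.38, edgeR adjusted p = 0.000262). Cd101, a surface protein of mature neutrophils, was at 309 and 347 CPM and then at 203 and 217 CPM in neutrophils, and fell 7.07-fold in the macrophage mean, a difference of 2.18 (SE 0.33, edgeR adjusted p = 0.000503). C5ar1, the receptor of complement C5a, fell 4.44-fold in the macrophage mean and differed by 1.69 (SE 0.18, edgeR adjusted p = 2.43e-05), though by 0.80 against CD9+ macrophages alone. Fpr1, the formyl peptide receptor, fell 5.53-fold there and differed by 1.64 (SE 0.30, edgeR adjusted p = 0.00190), but was not called against CX3CR1+ macrophages alone (adjusted p = 0.0608).

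Chil3 and Mmp8 were at their highest in day 14 neutrophils. Chil3, a chitinase-like lectin, went from 1463 and 853 CPM to 2486 and 2500.3 CPM in neutrophils, and rose there by 1.11 on the log2 scale. The difference was 1.66 (SE 0.31, edgeR adjusted p = 0.00205). Mmp8, the neutrophil collagenase, had 3755 and 2468 CPM and then 4902 and 5428 CPM in neutrophils, a change of 0.73 that was not called, and a difference of 1.57 (SE 0.32, edgeR adjusted p = 0.00464).

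**Figure D5:**
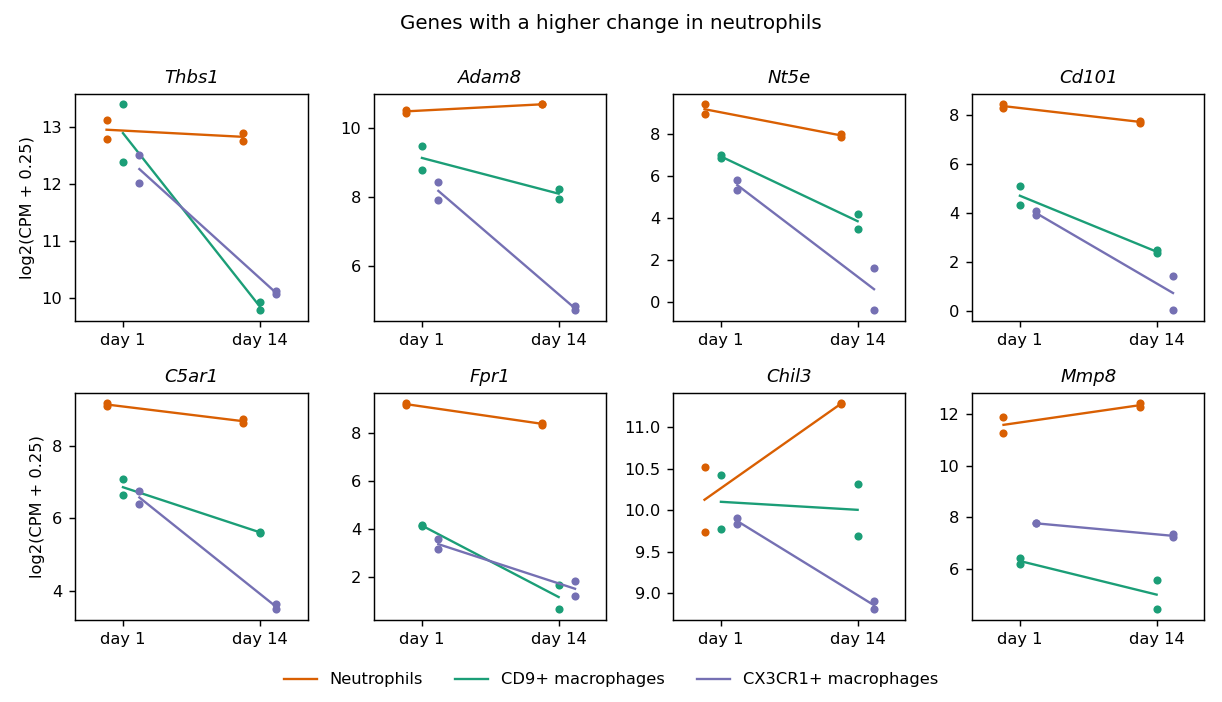
Points are the 2 libraries of a group on day 1 and day 14, as log2(CPM + 0.25), and lines join the group means of neutrophils (orange), CD9+ macrophages (green) and CX3CR1+ macrophages (purple). Thbs1 and Adam8 had no called change in neutrophils and fell in both macrophage populations, while Chil3 rose in neutrophils.

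Granule proteins were divided. Of 27 tested, Lcn2, Mmp8, S100a8 and Wfdc21 were called higher and Mpo, Prtn3 and Ctsg lower. The higher calls other than Mmp8 rested on CX3CR1+ macrophages: S100a8 went from 316 and 277 CPM to 22.3 and 39.7 CPM there, and its difference of 1.77 (SE 0.55, edgeR adjusted p = 0.0450) was -0.22 against CD9+ macrophages alone (adjusted p = 0.878). The call of S100a8 was lost in most fits that left out a library, with edgeR adjusted p up to 0.195 without the second day 1 neutrophil library. Lcn2 (0.28, edgeR adjusted p = 0.778) and Wfdc21 (0.15, adjusted p = 0.901) were not called against CD9+ macrophages alone either. The neutrophil markers summed to 1648 and 1689 CPM in CX3CR1+ macrophages on day 1 and to 673.7 and 840.1 CPM on day 14. S100a8 and Lcn2 are among these markers, so that the fall of the sum is no separate support. The part of neutrophil RNA in the result was not tested. Of the remaining genes that the study names for these cells, Ly6g (-0.83, edgeR adjusted p = 0.502), Cebpe (0.82, adjusted p = 0.156), Spi1 (0.21, adjusted p = 0.310) and Itgam (0.55, adjusted p = 0.0683) were not called.

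Markers of other cells lay beside a few of the largest values. Jchain, of plasma cells, rose in neutrophils from 1.05 CPM or less to 10.2 and 10.3 CPM and differed by 4.11 (SE 0.73, edgeR adjusted p = 0.00147), while CD9+ macrophages had 36.8 to 185 CPM of it. The 7 B and plasma cell markers, Jchain among them, summed to 2.712 and 2.765 CPM in neutrophils on day 1 and to 10.87 and 13.56 CPM on day 14. Jchain was most of the day 14 sums, so that they are no separate support. In CD9+ macrophages the 7 summed to 38.63 to 194.3 CPM. Ppbp, of platelets, was at 27.3 and 43.7 CPM and then at 1.91 and 1.01 CPM in CD9+ macrophages and at most at 1.68 CPM in neutrophils. Its difference of 4.98 (SE 1.43, edgeR adjusted p = 0.0314) became -1.53 without the first day 14 neutrophil library. The other tested platelet markers, Pf4 (0.13) and Itga2b (-1.04), were not called. In CD9+ macrophages the 6 platelet markers, Ppbp among them, summed to 147.1 and 229.2 CPM on day 1 and to 94.61 and 97.6 CPM on day 14. Prg4, Col1a1 and Sparc, of synovial lining, fibroblasts and bone, were called lower. The 8 fibroblast and bone markers, Col1a1 and Sparc among them, summed to 3.158 and 5.004 CPM in CD9+ macrophages on day 1 and to 30.71 and 41.63 CPM on day 14. In CX3CR1+ macrophages their day 14 sums were 5.993 and 86.77 CPM, and in neutrophils 10.85 and 54.11 CPM on day 1. Without the first day 1 neutrophil library the calls of Prg4 (-5.61, edgeR adjusted p = 0.337), Col1a1 (-3.07, adjusted p = 0.0896) and Sparc (-1.95, adjusted p = 0.410) were lost, and each was lost in other fits too. The part of these cells in the results was not tested.

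Several lists had few or no calls, beside backgrounds of 7.43% lower and 1.38% higher. For the lists of 8 and 6 genes, no call is near these backgrounds. None of 47 subunits of the mitochondrial respiratory chain, 8 of the NADPH oxidase, 6 Fc gamma receptor genes or 20 genes of cholesterol and fatty acid synthesis was called, and 1 of 51 ribosomal protein genes was. The lists' medians were 0.42 for the respiratory chain and 0.22 for the NADPH oxidase, the enzyme of the oxidative burst. Of 40 cell cycle genes, none was called lower. Cdc20 and Kif20a were called higher, a share above the background, with differences of 1.06 and 1.02 close to the threshold. Of 31 interferon-stimulated genes, Cxcl10, Gbp2 and Gbp3 were called lower and Ifitm1 higher, shares somewhat above the backgrounds. In neutrophils 9 of the 31 fell and in the macrophage mean 2, beside 10.9% and 3.85% of all tested genes. The list's median difference was -0.498, beside -0.0485 over all tested genes. Ifitm3 had a difference of -0.08 (edgeR adjusted p = 0.855).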

How the data were processed

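Per the labels and the study's methods, libraries were SMART-Seq Stranded, reads were trimmed (Cutadapt) and aligned by STAR to mm10, and the authors deposited raw counts per gene over Gencode M23 exons, not normalized. Whether counting used strand is not given in the sources used here, so overlapping and antisense genes are uncertain. The table holds 20200 genes. Genes passed if any of the 8 groups had a mean of 3 CPM or more. Counts were scaled by TMM and fitted over all 16 libraries, with a mean per group, by edgeR 4.0.16 (glmQLFit, glmQLFTest; R 4.3.3, limma 3.58.1). Each SE was derived from the F statistic. A call required both an adjusted p below 0.05 (Benjamini-Hochberg) and a log2 value of 1 or more in size. Depth ran from 9233952 to 19814119 counts, and floors of 3 counts cover counting error only.

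The samples compared and the 27 gene lists and 10 marker lists were chosen with earlier results of these data known, and no list was tested as a set. The rule for named genes took the 12 highest and 12 lowest called genes (highest group mean of 10 CPM or more, libraries not overlapping), up to 4 called genes per list, 5 per pattern of calls and the genes the study names, 134 in all. Other genes named are list members picked after their values were seen. Alternatives covered scaling, filters, thresholds, DESeq2 1.42.0, the macrophage reference, a replicate block, thinning and leaving out libraries. The fit was tested on simulated data. Promoters came from RefSeq, taking the start nearest the gene's 5′ end.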

Additional observations from a re-analysis of the deposited data

Results flagged for a closer look

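A pair of counts and 5 genes stood out because the change over time differed between neutrophils and macrophages by the edgeR interaction term. These were the 892 genes called lower and the 165 called higher, and, among the 20 genes that fell in neutrophils and rose in the macrophage mean, the 5 with the largest differences. Flt1 had a difference of -6.18 and Tns1, a focal adhesion protein, one of -3.94. Tns1 went from 58.2 and 81.7 CPM to 20.5 and 19.1 CPM in neutrophils and from 9.87 and 14.2 CPM to 69.4 and 108 CPM in CD9+ macrophages, and its difference was -3.16 against CX3CR1+ macrophages alone. The difference was -4.20 for Gm37691, whose CX3CR1+ libraries held 2 and 3 counts on day 1. It was -4.16 for Tmem64, whose call was lost without the second day 1 (-3.51, adjusted p = 0.0521) or the second day 14 neutrophil library (-3.73, adjusted p = 0.0651). It was -4.07 for Plxdc1, whose neutrophil libraries were at 0.747 CPM or less, so that its fall there was bounded only at 2.04-fold. Groups of 2 libraries were too small to look for a single outlying library.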

How the results depend on the processing

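Of the 120 named genes that were called, 64 remained called under every alternative that gave them a value, the stricter fold threshold included. The 1057 called genes (165 higher, 892 lower) became 533 (99 higher, 434 lower) with the expression filter in every group, of which 504 were shared. They became 628 (70 higher, 558 lower) against a fold change of 1.5 and 538 (49 higher, 489 lower) when called against both macrophage populations separately, and 1685 (506 higher) with no limit on the fold. With the filter in every group, 745 genes were called in neutrophils and 209 in the macrophage mean, against 1689 and 934. Leaving out 1 of the 12 libraries gave 663 to 1415 called genes, 109 to 353 higher and 547 to 1161 lower, with 1212 to 1865 in neutrophils and 735 to 1277 in the macrophage mean; the remaining library of that group is assumed to vary like the others. The lowest total and lower count came without the second day 14 neutrophil library, the most higher calls (353) without the first day 1 neutrophil library, and 254 higher calls without the second day 1 CD9+ library. In alternatives chosen after seeing the data, 430 lower genes were above both macrophage levels on day 1 and 104 higher genes on day 14, and thinning to the smallest library gave 999 calls. A pair of named genes reversed, Ppbp (-1.53 without the first day 14 neutrophil library, the values of its fits without a library running from -1.53 to 6.05) and S100a8 (-0.22 against CD9+ macrophages alone). DESeq2 called 1249 genes (232 higher, 1017 lower), 1024 of them shared. Apart from the construction of the filters and thresholds, the cause was not tested.

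Libraries of a day share replicate numbers, but the labels do not say that a number marks a pool. The paper reports too few mice for a separate pool per library, so that libraries of different populations likely shared pools. The main fit did not model such sharing. Deviations of same-numbered libraries correlated weakly, and always with a positive sign (0.0132 to 0.144). With the replicate block within each day, 1075 genes were called (170 higher, 905 lower). The block left 1484 called in neutrophils and 730 in the macrophage mean, against 1689 and 934 in the main fit. With 2 libraries per group, genes of few counts were limited most.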

Other observations

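Of the long noncoding genes (lincRNA and antisense types), 37 (10.4% of those tested) were called lower and 1 (0.281%) higher, beside 7.70% and 1.46% of protein coding genes.

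F4/80- myeloid cells, which entered no part of the difference, rose for 121 and fell for 269 of all 11998 tested genes from day 1 to day 14. Of the 892 genes called lower, 67 fell in these cells too, and of the 165 called higher, 3 rose.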
